A study of Mus musculus with 2 samples.

Results

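The genes described here are 10 genes that cytotoxic lymphocytes, natural killer (NK) cells among them, use to kill and to call in other cells: Gzma, Gzmb, Prf1, Nkg7, Ctsw, Cst7, Fcer1g, Tyrobp, Xcl1 and Ccl5. They were picked by name, with earlier results of these data known. Every probe that the array files or current gene symbols assign to one of them was taken, with Prf1 also searched under its older name Pfp. The 10 genes had 13 probes among the probes of 27591 genes, and 8 of the 10 were among the 14921 genes bright enough to be tested. RNA came from CD4+CD8+ double-positive (DP) thymocytes of untreated mice of 2 genotypes, compared as 2 pairs, each pair on 1 2-colour array. The deficient cells, labelled Bcl11bF/FCD4Cre/Tcra-/-, have a floxed Bcl11b gene, Cre recombinase under Cd4 control and no Tcra, and carried the dye Cy5 on both arrays. The control cells, labelled TCRa-/-, carried Cy3 on both arrays, and their label mentions no Cre and no floxed gene. All 4 samples thus lacked Tcra, which T cells need for an alpha beta receptor, so that their DP cells stay before positive selection. The study used this background to ask what Bcl11b does before selection, because selection itself is defective when Bcl11b is deleted in DP cells. Age, sex and number of mice, the way DP cells were purified and the deleted stretch of Bcl11b are not given in the labels. Since dyes were not swapped, genotype and dye cannot be told apart in any value below, and neither can an effect of Cre and loss of Bcl11b.

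Killer lymphocytes store granzymes, which are serine proteases, together with the pore-forming protein perforin in acidic granules, and release both onto a target cell. Cathepsins and their cystatin inhibitors work in the same compartment, and Nkg7 is a membrane protein of these granules. Activating NK receptors have no signalling tail of their own and pair with small adaptors, such as the products of Fcer1g and Tyrobp, whose ITAM motifs recruit the kinases Syk and Zap70. NK cells and activated CD8 T cells secrete the chemokines encoded by Xcl1, which draws cross-presenting dendritic cells, and Ccl5, which draws T cells and monocytes. DP thymocytes are not a killer population, and Bcl11b is known as a zinc finger factor that keeps T lineage cells from NK-like expression.

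Promoter sequences are shown for Gzma, Xcl1 and Prf1, whose signals did not overlap between genotypes, and for Gzmb, which was not detected. Of all tested genes, 27.3% separated with the deficient cells higher and 29.5% with them lower, so separation sets no gene apart. The sequences are printed to be read side by side. Each runs 5′ to 3′ on the gene's own strand, from 250 bases before to 50 bases after the RefSeq start site. Positions are those of GRCm38.p6: Gzma lies at chr13:113100932-113101231 on the minus strand, Xcl1 at chr1:164935473-164935772 on the minus strand, Prf1 at chr10:61297586-61297885 on the plus strand and Gzmb at chr14:56262285-56262584 on the minus strand. Capitals mark matches, on either strand, to the letters TGTGGT of the Runx core, CAGGAA of an Ets site, TTCNNNGAA of a STAT site, AGGTGTGA of a T-box site or TATAAA of the TATA box. Within these windows no match overlaps another.
Gzma: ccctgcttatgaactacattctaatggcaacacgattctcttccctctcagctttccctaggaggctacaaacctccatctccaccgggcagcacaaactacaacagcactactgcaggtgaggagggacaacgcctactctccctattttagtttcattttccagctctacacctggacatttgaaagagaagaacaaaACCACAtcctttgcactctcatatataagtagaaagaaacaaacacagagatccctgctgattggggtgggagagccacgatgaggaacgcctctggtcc
Xcl1: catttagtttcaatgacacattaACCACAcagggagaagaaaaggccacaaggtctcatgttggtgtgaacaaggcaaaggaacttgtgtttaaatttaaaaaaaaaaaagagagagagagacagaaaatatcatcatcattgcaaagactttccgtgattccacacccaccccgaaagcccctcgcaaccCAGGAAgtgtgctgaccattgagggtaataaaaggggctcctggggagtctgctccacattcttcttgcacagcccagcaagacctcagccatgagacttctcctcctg
Prf1: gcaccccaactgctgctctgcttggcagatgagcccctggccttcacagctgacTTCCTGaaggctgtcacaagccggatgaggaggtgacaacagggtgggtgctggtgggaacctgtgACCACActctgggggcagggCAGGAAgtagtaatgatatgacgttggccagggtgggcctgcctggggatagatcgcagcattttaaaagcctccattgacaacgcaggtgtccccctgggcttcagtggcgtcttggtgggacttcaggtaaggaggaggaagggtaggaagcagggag
Gzmb: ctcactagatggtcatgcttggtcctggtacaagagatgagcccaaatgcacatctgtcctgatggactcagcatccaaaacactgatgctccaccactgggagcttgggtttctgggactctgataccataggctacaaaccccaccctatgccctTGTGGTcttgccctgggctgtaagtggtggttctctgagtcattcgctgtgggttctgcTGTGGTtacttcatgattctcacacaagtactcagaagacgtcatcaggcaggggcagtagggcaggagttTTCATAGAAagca
A promoter entry was found for 7 of the 10 genes, namely these 4 and Nkg7, Cst7 and Fcer1g. The Runx letters were in all 7 of those windows, against 16.8% of 32851 mouse promoters of the same length. They stood once in the Gzma, Xcl1 and Prf1 windows, with the first base at -50, -227 and -130 from the start site, and at -93 and -34 in the Gzmb window. The Ets letters were in 4 of the 7 (Prf1, Nkg7, Fcer1g and Xcl1), against 30.6% of promoters. The STAT letters were in 2 (Gzmb and Nkg7), against 8.3%, and the T-box letters in 1 (Nkg7), against 1.28%. In the Nkg7 window, which is not printed, the STAT match overlaps an Ets match. The exact letters TATAAA were in 0 of the 7, against 13.6% of promoters. Other spellings of a TATA box were not searched, so a window without these letters may still hold one. The genes were not chosen for their promoters, but a match of letters is not a bound site.

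Facts of the whole series bear on all values. Between 50.5% and 56.5% of spots other than controls were well above background in each channel, by the scanner software's flag, and 2 arrays set the precision. The 2 probes of Bcl11b, the targeted gene, gave log2 ratios of deficient over control of -1.40 and -0.28, and of -1.37 and -2.16, on replicates 1 and 2. All 11 DP thymocyte markers, which include Cd4, Cd8a, Rag1 and Rag2, passed the filter on dim probes, and none was at background. Of the 11, 8 had ratios below 0 on both arrays (38.5% of all tested genes) and 3 above 0 on both (36.4%). Their median log2 ratio was -0.24 with loess and 0.16 with median centring in its place, so its sign depends on the scaling. Signals below are background-corrected, loess-normalised log2 values, ratios are differences of these, and a mean ratio is given ± its moderated SE from limma (n = 2 arrays). A gene counts as called when the limma p, adjusted by the Benjamini-Hochberg method over all 14921 genes, is under 0.05. The p-values rest on the difference between the ratios of 2 arrays, whose samples the labels name biological replicates 1 and 2. That difference gives 1 degree of freedom, and a prior shared over all genes gives 2.50, so most of each variance is shared. RNA was taken from bulk cells, so fewer cells of a type and less RNA per cell cannot be told apart.

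Of the 8 tested genes, 0 were called, as were 0 of all 14921 genes (0%). Gzma, Nkg7, Ctsw, Fcer1g, Tyrobp and Xcl1 had ratios above 0 on both arrays, 6 of 8 against 36.4% of all tested genes. The genes were chosen with earlier results of these data known, so this count and the counts and median below are descriptive only. Prf1 alone was below 0 on both arrays, 1 of 8 against 38.5%, and Ccl5 differed in sign between arrays. An unadjusted limma p under 0.05 with a higher mean was found for 5 of the 8 (Gzma, Fcer1g, Xcl1, Ctsw and Nkg7), against 15.1% of all genes, and with a lower mean for 0, against 14.1%. Since 4355 genes in all had such a p, it sets no gene apart. No gene of the 8 was at least 2-fold higher on both arrays, against 0.818% of all genes. The median of the 8 mean ratios was 0.48, with 0.44 on replicate 1 and 0.40 on replicate 2, and the median of all tested genes was -0.0034. The 4 signals of a gene separated by genotype with the deficient cells higher for 2 of the 8 (27.3% of all genes) and with the deficient cells lower for 1 (29.5%). Read against those shares, neither count sets the 8 genes apart. Xcl1 enters the counts of higher genes with a control of replicate 2 that was not well above background.

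**Figure D1:**
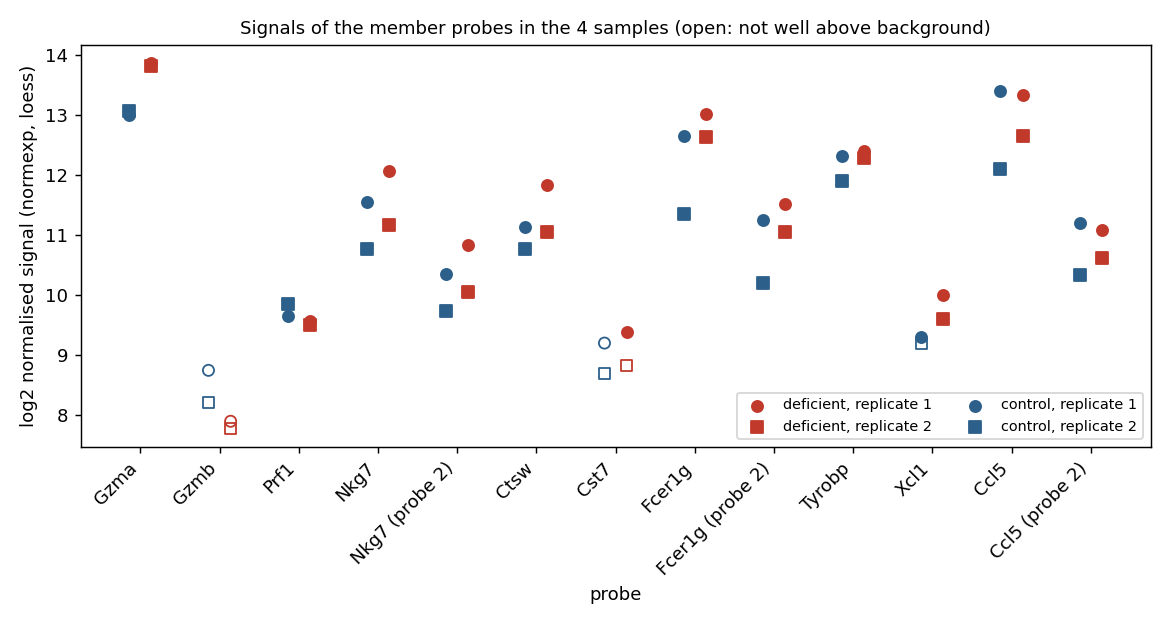
The vertical axis gives the log2 normalised signal of each probe in the 4 samples, red for deficient and blue for control, circles for replicate 1 and squares for replicate 2; open symbols were not well above background. The Gzma symbols of each genotype lie together and apart from the other genotype, while the control circles of Fcer1g and Ccl5 lie far above the control squares; heights of different probes are not comparable.

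Among the granule proteases, Gzma encodes granzyme A, a tryptase-like enzyme. Its log2 signals were 13.87 and 13.82 in the deficient samples and 13.00 and 13.07 in the control samples of replicates 1 and 2. Both deficient samples lay above both controls, and the samples of each genotype differed by only 0.05 (deficient) and -0.07 (control, replicate 1 minus 2). The ratios of 0.87 and 0.75 gave a mean of 0.81 ± 0.08, a 1.76-fold higher signal, which missed the call with a limma adjusted p of 0.0726. This placed Gzma 340th from the highest of the tested genes. The scanner software's own processed intensities were 5708 and 5500 against 3040 and 3166. Over 10 alternative settings the mean ran from 0.78 to 1.10. Separate-channel limma called Gzma (adjusted p = 0.0201), as it called 4.74% of genes higher, and so did median centring (adjusted p = 0.0317), as it called 5.88% higher. Over those settings the adjusted p ran from 0.0201 to 0.120. The probe lies at chr13:114216656-114216715 of the mm8 build on the minus strand, and this and all probe positions below are those of the array files. No gene model of that build was used here, so exon, intron and UTR positions of probes are not given.

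Gzmb encodes granzyme B, the caspase-activating granzyme of killer cells. Its only probe (chr14:55213150-55213209, minus strand) was not well above background in any channel. Processed intensities were 9.15 and 11.4 in the deficient and 12.5 and 11.1 in the control samples, where the medians of the negative control spots were 8.44 and 10.7, and 11.4 and 10.7. No ratio is given for it. Gzma and Gzmb thus differed in detection in the same 4 samples. Of the 8 other granzyme genes listed, Gzmg, Gzmk and Gzmn were likewise not well above background in any channel. Gzmc was well above background only in the deficient sample of replicate 1. Gzmd, Gzme, Gzmf and Gzmm were tested, with 1 higher on both arrays (36.4% of all genes) and 3 lower on both (38.5%). Their median was -0.11. Gzme, the one farthest from 0, read -0.15 and -0.20 (mean -0.18 ± 0.07, limma adjusted p = 0.208). Gzmm read -0.13, Gzmd -0.10, and Gzmf was at least 1.05-fold higher over controls not well above background. Gzmc to Gzmg are close relatives in sequence, and cross-hybridisation among their probes was not tested.

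Prf1 encodes perforin, the pore through which granzymes enter the target. Its log2 signals were 9.56 and 9.5 in the deficient samples and 9.65 and 9.84 in the controls. Both deficient samples lay below both controls, opposite to Gzma, but replicate 1 was close to its control. The ratios of -0.09 and -0.34 averaged -0.21 ± 0.10 (limma adjusted p = 0.242). The signal was dim, with processed intensities of 128.3 and 101.3 in the deficient and 146.3 and 172.2 in the control samples, and these put the mean at -0.48. Its probe lies at chr10:60699137-60699196 on the plus strand. Prf1 stayed below 0 in all 10 alternative settings, from -0.48 to -0.14, and was called in none, with adjusted p from 0.178 to 0.293.

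Nkg7, the granule membrane protein gene, gave log2 signals of 12.07 and 11.17 in the deficient samples and 11.56 and 10.77 in the controls. Each deficient sample lay above the control of its own array, but the control of replicate 1 exceeded the deficient sample of replicate 2, so the genotypes overlapped. The ratios of 0.51 and 0.40 averaged 0.46 ± 0.08 (limma adjusted p = 0.0879), although replicate 1 exceeded replicate 2 by 0.90 in deficient and 0.78 in control cells. Its other probe, which starts 334 bases away, read 0.49 and 0.31. The probes lie at chr7:43306032-43306091 and chr7:43305698-43305757 on the plus strand. Median centring called Nkg7 (adjusted p = 0.0470). The other settings did not, and the highest adjusted p was 0.309, by separate-channel limma.

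Ctsw encodes cathepsin W, a cysteine protease found mainly in NK and CD8 T cells. The log2 signals of this gene were 11.84 and 11.05 in the deficient samples and 11.13 and 10.77 in the controls. As for Nkg7, each deficient sample was above its partner while replicate 1 was higher than replicate 2 in both genotypes, and the genotypes overlapped. The ratios of 0.71 and 0.29 averaged 0.50 ± 0.13 (limma adjusted p = 0.128, and from 0.0628 to 0.191 over the settings). The probe lies at chr19:5465371-5465430 on the minus strand. Cst7, which encodes cystatin F, an inhibitor of granule cathepsins, was well above background only in the deficient sample of replicate 1. Its processed intensities were 97.5 and 13.5 in the deficient and 55.0 and 12.5 in the control samples. It was not tested, and its bright and dim limits leave no fold to state. The Cst7 probe lies at chr2:150270195-150270254 on the plus strand.

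The machinery that makes and moves the granules did not share one direction. Of 20 such genes, 19 were tested, with 7 higher on both arrays (36.4% of all genes), 7 lower on both (38.5%), and 0 called by limma. An unadjusted p under 0.05 was found for 5 higher (15.1% of all genes) and 2 lower (14.1%). The median was 0.01, but median centring in place of loess raised it to 0.28, while the median of all tested genes went from -0.0034 to 0.13. Rab27a, the small GTPase that docks granules at the membrane, had ratios of 0.72 and 0.77 (mean 0.74 ± 0.07, limma adjusted p = 0.0726). Unc13d, which primes docked granules for fusion, had a mean of 0.43 ± 0.07, and Lgmn, the lysosomal protease legumain, 0.43 ± 0.08. Ctsl, the cathepsin L gene, was the lowest at -0.61 ± 0.08 (limma adjusted p = 0.0784), but median centring took it to -0.07. Separate-channel limma called 4 of these genes higher, against 4.74% of all genes.

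Of 8 inhibitors of granzymes and cathepsins, 7 were tested. Of these, 4 were higher on both arrays (36.4% of all genes) and 1 lower on both (38.5%), with a median of 0.08. Serpinb6b, an intracellular serpin, had ratios of 0.99 and 1.31 (mean 1.15 ± 0.11, limma adjusted p = 0.0726). Serpinb9, the serpin that inhibits granzyme B, averaged 0.23 ± 0.08, and Cstb, the cystatin B gene, 0.08 ± 0.08. Cst3, the cystatin C gene, averaged -0.36 ± 0.08 with loess and 0.08 with median centring, so its direction depends on the scaling.

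Fcer1g encodes the gamma chain that carries the ITAM for Fc receptors and several NK receptors. Its log2 signals were 13.02 and 12.63 in the deficient samples and 12.66 and 11.34 in the controls. The control of replicate 2 stood far below the other 3 samples, and the genotypes overlapped at the control of replicate 1. The ratios were therefore unlike, 0.37 and 1.29, and averaged 0.83 ± 0.26 (limma adjusted p = 0.154). The control samples differed from each other by 1.31, more than the mean ratio. The other probe, which shares 8 bases with the first, showed the same with 0.26 and 0.85. The probes lie at chr1:173066338-173066397 and chr1:173066390-173066462 on the minus strand.

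Tyrobp encodes DAP12, the adaptor of activating Ly49, Trem and other receptors. The signals were, in log2, 12.40 and 12.29 in the deficient samples and 12.33 and 11.90 in the controls. Here too the control of replicate 2 was the low sample, and the other 3 lay close together, so that the genotypes overlapped. The ratios of 0.07 and 0.39 averaged 0.23 ± 0.11 (limma adjusted p = 0.257, and from 0.121 to 0.376 over the settings). The array file places its probe at chr7:30124392-30126119 on the plus strand, a span of 1728 bases, longer than a probe of 60 bases. Fcer1g ran from 0.69 to 1.04 and Tyrobp from 0.21 to 0.44 over 10 alternative settings, and neither was called in any, with a lowest adjusted p of 0.0844 for Fcer1g.

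Of 18 ITAM adaptors, receptors and kinases that work with these 2 genes, 17 had a probe (Sh2d1b2 did not) and 12 were tested. On both arrays 7 were higher (36.4% of all genes) and 2 lower (38.5%). The median was 0.20 and 0 were called by limma. Unadjusted p under 0.05 was found for 3 higher (15.1% of all genes) and 2 lower (14.1%). The 7 and the 3 include Klrk1, whose controls were not well above background. Syk, the kinase that binds phosphorylated ITAMs, had ratios of 0.54 and 0.93 (mean 0.73 ± 0.12, limma adjusted p = 0.0897). Plcg2, the phospholipase downstream of Syk, read 0.17 and 1.37 (mean 0.77 ± 0.33), and Fcgr3, the low-affinity IgG receptor that pairs with the gamma chain, 0.11 and 0.56 (mean 0.33 ± 0.14). Cd247, the ITAM chain of the T cell receptor, went the other way at -0.66 and -0.56 (mean -0.61 ± 0.07, limma adjusted p = 0.0779). Its other kept probes read -0.20 and -0.41, and -0.47 and -0.50. With median centring the mean of the first probe was -0.11, with -0.27 and 0.05 on the 2 arrays, so its size and its sign on replicate 2 depend on the scaling.

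**Figure D2:**
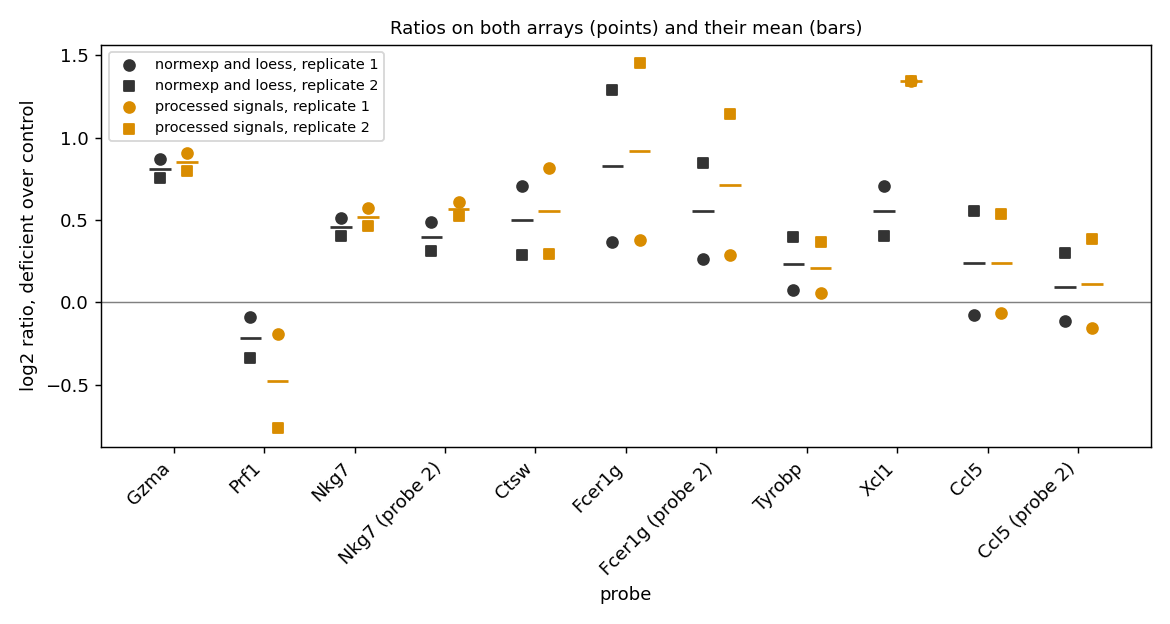
The vertical axis gives log2 ratios of deficient over control for each kept probe, circles for replicate 1 and squares for replicate 2, with bars at the mean; black values use normexp correction and loess, orange values the scanner software's processed signals. Gzma and Nkg7 have close replicates in both versions, Fcer1g has replicates of 0.37 and 1.29, and the mean of the dim probe of Xcl1 moves from 0.56 to 1.34.

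Xcl1 encodes lymphotactin, with log2 signals that were 10.005 and 9.59 in the deficient samples and 9.30 and 9.19 in the controls, the control of replicate 1 well above background and that of replicate 2 not. Both deficient samples lay above both controls. The ratios of 0.71 and 0.40 averaged 0.56 ± 0.11 (limma adjusted p = 0.0974). Processed intensities were 239.0 and 127.1 in the deficient and 94.3 and 50.1 in the control samples, which gave 1.34 on both arrays. On those signals limma called Xcl1 (adjusted p = 0.0491), as it called 0.496% of genes higher. The deposited log ratios, equal to these within rounding, gave a limma adjusted p of 0.05135 and no call. The 1.34 of replicate 2 is set against an undetected control. The call on processed signals and the lack of overlap thus rest partly on that floor. Among 9 alternative settings the mean ran from 0.36 to 1.34, with adjusted p from 0.0491 to 0.148, so the direction held and the size differed between settings. The probe lies at chr1:166768564-166768623 on the minus strand.

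Ccl5 encodes the chemokine RANTES. Its log2 signals were 13.33 and 12.66 in the deficient samples and 13.41 and 12.11 in the controls. The 2 samples of replicate 1 were alike and higher than both samples of replicate 2, so the level followed the replicate more than the genotype. The ratios of -0.08 and 0.55 averaged 0.24 ± 0.18 (limma adjusted p = 0.435), and the other probe, which starts 151 bases away, read -0.12 and 0.30. Replicate 1 exceeded replicate 2 by 1.30 in control and 0.67 in deficient cells. The probes lie at chr11:83341989-83342048 and chr11:83342140-83342195 on the minus strand.

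Of 8 related chemokines and receptors of Xcl1 and Ccl5, 3 were tested. Ccl6 read 0.41 and 1.15 (mean 0.78 ± 0.21), Ccl9 0.28 and 0.51 (mean 0.40 ± 0.09) and Ccl4 -0.04 and -0.22 (mean -0.13 ± 0.08), all chemokines of myeloid or activated cells. The receptor genes Xcr1, Ccr1 and Ccr3 and the chemokine gene Ccl3 were not well above background in any channel.

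The last related lists, chosen with earlier results of these data known, hold other effector molecules and transcription factors. From 13 other effector molecules, 12 had a probe (Gnly did not) and 7 were tested. Of these, 6 were higher on both arrays (36.4% of all genes) and 1 lower on both (38.5%), with a median of 0.92. An unadjusted p under 0.05 was found for 5, all higher (15.1% of all genes). By limma 0 were called, by separate-channel limma 3 (4.74% of all genes) and on processed signals 2 (0.496%). Cd7, an immunoglobulin-family surface protein of T and NK cells, read 1.40 and 1.15 (mean 1.28 ± 0.10, limma adjusted p = 0.0717). Il2rb, the chain of the interleukin receptors that NK cells depend on, averaged 0.95 ± 0.08, and Ltb, the lymphotoxin beta gene, 0.92 ± 0.16. Cd160, a receptor of NK and intraepithelial cells, was at least 1.33-fold higher over controls not well above background. Cd160 is among the 6 higher on both arrays and the 5 with such a p, where its ratio rests on the control floor. Ifng, the effector cytokine of killer cells, was not well above background in any channel, and nor were Csf2, Klrg1 and S1pr5.

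Of 10 transcription factors of effector and NK programmes, 8 had a probe (Zfp683 and Zbtb16 did not) and 7 were tested. On both arrays 6 were higher (36.4% of all genes) and 0 lower (38.5%), with a median of 0.42. An unadjusted p under 0.05 held for 5, all higher (15.1% of all genes), and 0 were called by limma and 3 by separate-channel limma (4.74%). Id2, the E protein inhibitor that innate lymphocytes require, read 1.46 and 2.42 (mean 1.94 ± 0.27, limma adjusted p = 0.0821), and its other probe 1.27 and 1.94. Runx3, the Runx factor of cytotoxic lineages, read 0.83 and 1.34 (mean 1.09 ± 0.15, limma adjusted p = 0.0835), over a control well above background on replicate 1 only. The 1.34 is thus set against an undetected control, and its size and the mean rest on that floor. Runx3 is among the 6 higher on both arrays and the 5 with such a p. The other probe gave only 0.20 and 0.10. Nfil3, needed for NK development, averaged 0.64 ± 0.09, and Zeb2, a transcriptional repressor active in late effector cells, 0.42 ± 0.08. The T-box factor genes Tbx21 and Eomes, which drive granzyme and perforin expression in mature killers, averaged 0.21 ± 0.09 and 0.09 ± 0.10, and Prdm1 was not well above background in any channel.

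**Figure D3:**
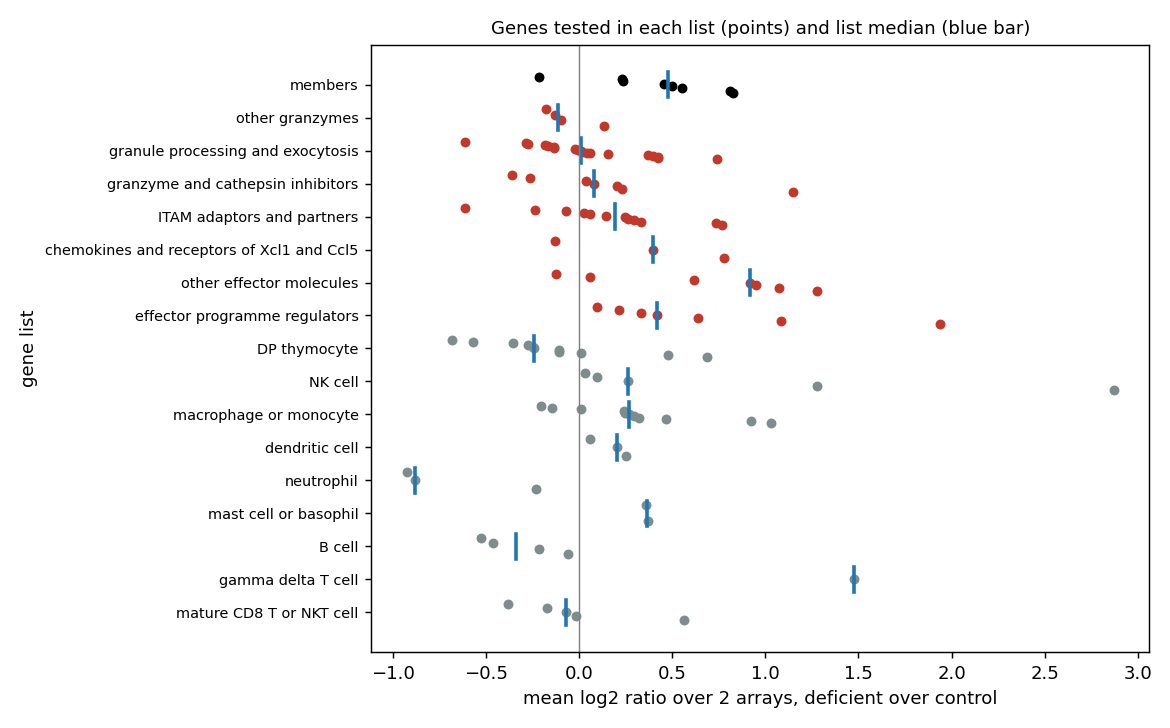
The horizontal axis gives the mean log2 ratio over 2 arrays for each tested gene (points) and the list median (blue bar), with one row for each list; members are the 8 tested cytotoxic and NK effector genes, other related lists are red and cell type markers grey. The members lie from -0.21 to 0.83, other effector molecules have a median of 0.92, and genes of granule processing and exocytosis spread on both sides of 0.

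The genes also varied with the replicate. Replicate 1 exceeded replicate 2 in the control cells for 6 of the 8 tested genes and in the deficient cells for 8 of 8, with differences from -0.19 to 1.31 and from 0.05 to 0.90. For 4 genes the control difference was larger than the mean ratio of the genotypes. Removing an array leaves the median of the 8 at 0.40 (replicate 2 alone) or 0.44 (replicate 1 alone).

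Markers of cells other than DP thymocytes also differed between samples, and their part in the values above was not tested. All 11 macrophage or monocyte markers were tested, with 7 higher on both arrays (36.4% of all genes) and 2 lower on both (38.5%). The median of these markers was 0.27. Their summed processed intensity was 35140 and 33130 in the deficient and 31460 and 12720 in the control samples, most of it from Lyz2 (25050 and 28030, and 23210 and 8756). The other 10 markers summed to 10082 and 5096 in the deficient and 8255 and 3968 in the control samples, so without Lyz2 replicate 2 was low in both genotypes. Myeloid cells also express Fcer1g and Tyrobp, for which the control of replicate 2 was the low sample. Lyz2 (0.31 and 1.75), Adgre1 (0.73 and 1.12) and Csf1r (-0.01 and 0.95) had the mean ratios farthest from 0, the last over a control of replicate 2 that was not well above background. Replicate 1 exceeded replicate 2 by medians of 0.73 in control and 0.71 in deficient cells for these markers, and the corresponding medians for DP markers were -0.08 and 0.09 and for NK markers -0.02 and 0.12. The replicate differences of Nkg7 (0.78 and 0.90) were close to those of the macrophage markers C1qa (0.85 and 0.85) and Ms4a7 (0.76 and 0.89). Other macrophage markers were unlike Nkg7, such as Lyz2 (1.30 and -0.15), Adgre1 (0.64 and 0.25) and Itgam (0.03 and 0.08). Genes outside this list were also close, such as Cd63 (0.78 and 0.73) and Ctsh (0.78 and 0.76). The cell source of these differences was not tested. Of 8 dendritic cell markers, 3 were tested, with summed intensities of 5807 and 2158 in the deficient and 5203 and 1652 in the control samples, and Flt3, Xcr1 and Cd209a were not well above background in any channel. Of 6 neutrophil markers 3 were tested, with sums of 6165 and 8322 in the deficient and 35300 and 5011 in the control samples, so the control of replicate 1 stood apart. S100a8 read -2.35 and 0.59 and S100a9 -2.56 and 0.72.

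**Figure D4:**
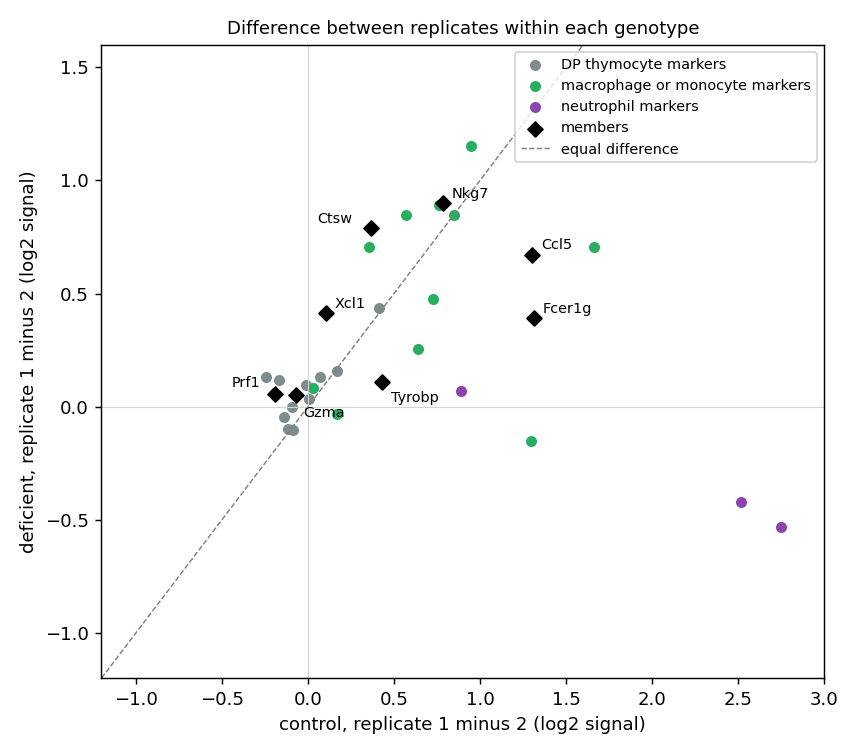
Each point is a tested gene, with the log2 signal of replicate 1 minus replicate 2 in control cells on the horizontal axis and in deficient cells on the vertical axis; the dashed line marks equal differences. Gzma and Prf1 lie near the DP markers around 0. Nkg7, at 0.78 in control and 0.90 in deficient cells, lies beside some macrophage markers, while other macrophage markers lie elsewhere. Fcer1g, at 1.31 in control cells, and Ccl5, at 1.30, lie farther to the right.

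Of 9 NK cell markers 5 were tested, with 3 higher on both arrays (36.4% of all genes) and 0 lower on both (38.5%). The median of these 5 was 0.26. Their summed processed intensity was 2630 and 3610 in the deficient and 728.8 and 583.5 in the control samples. Nearly all of the difference came from 2 genes, Klrb1c and Klrd1, while the tested Klra8 (0.13 and -0.07) and Eomes (0.23 and -0.04) differed in sign between arrays. Klrb1c, the gene of the NK1.1 receptor, read 2.42 and 3.32 (mean 2.87 ± 0.25, limma adjusted p = 0.0717), and Klrd1, which encodes CD94, 1.23 and 1.33 (mean 1.28 ± 0.07, limma adjusted p = 0.0663). Klrk1, the NKG2D gene, was at least 1.20-fold higher over controls not well above background. Klrk1 is among the 3 higher on both arrays, where its ratio rests on the control floor. Ncr1, the NKp46 gene that defines NK cells in mice, was well above background only in the deficient sample of replicate 1, and Klra4, Itga2 and Klre1 in no channel. Their part in the values of Gzma, Nkg7, Ctsw and Xcl1 was not tested. Among the remaining lists, the gamma delta T cell marker Cd163l1 read 1.36 and 1.59, the only one of 5 tested. Trdc, Tcrg-C1 and Tcrg-C4 had no probe under these symbols, so they were not measured. Sox13 was well above background only in the deficient sample of replicate 1. Of 5 mast cell or basophil markers, Cpa3 (mean 0.37) and Kit (0.36) were tested, while Ms4a2, Mcpt8 and Fcer1a were not well above background in any channel. The 4 tested of 5 B cell markers had a median of -0.34, with Cd79a not well above background. Of 6 markers of mature CD8 T or NKT cells 5 were tested, with a median of -0.07, and Klf2, the one farthest from 0, read 0.56 with loess and -0.01 after running-median centring, while its other kept probe read 0.56 and 1.86 on the 2 arrays and 0.59 and 1.89 after that centring.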

How the data were processed

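RNA was measured on 2 arrays. Feature Extraction 9.5.3.1 read the scans, per the submitters' processing notes. The deposited mean and local background signals are scanner intensity values with no correction, and the deposited processed signals are intensity values that this software corrected for background and dye, per the file headers. In the deposited log10 column, processed Cy5 is set over Cy3. The deposited value table states no unit and equalled this log10 ratio to a tolerance of 0.005, and both its columns had a median of 0.

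Mean signals were corrected by normexp (offset 50), normalised by loess within each array, controls at weight 0, and turned into log2 ratios from the deposited intensity columns. For the signals of single samples, average log2 intensities were then quantile-normalised between the 2 arrays. The same step preceded the separate-channel fit. Spots called outlying were dropped (108 and 116). Of 41174 probes, 21539 were kept, because both samples of at least 1 genotype were well above background. The brightest kept probe stood for a gene. The mean of the 2 ratios was tested against 0 with limma 3.58.1 in R 4.3.3 (statmod 1.5.0), with 1 residual degree of freedom and a prior of 2.50 degrees of freedom and SD 0.117. The separate-channel fit used an intraspot correlation of 0.381. The code was tested on simulated data. Both arrays lie on one slide and were scanned together. The labels do not say whether the samples of a replicate were prepared together, so a preparation batch is not known.

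The members and lists were chosen with earlier results of these data known. Text names all members, up to 4 genes a list of largest ratio and equal sign on both arrays, up to 3 per marker list, with markers not above background, and Bcl11b. Tbx21 and Eomes were added after their values were seen. Alternatives covered processed signals, median or running-median centring (window 1001 probes), no background subtraction, 2 other filters on dim probes, the value table, the separate-channel fit, 2 other uses of probes and each array alone. A bound sets the brighter group's mean against the higher of the dim signal and the lowest signal well above background. Promoters came from RefSeq on GRCm38.p6.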

Additional observations from a re-analysis of the deposited data

How the results depend on the processing

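The values reported are already paired, since every ratio sets a deficient sample against the control of its own array. In 10 alternative settings the 8 tested genes gave 79 values, and none of the 8 changed the sign of its mean. Of these values, 4 were called: Gzma by separate-channel limma and median centring, Nkg7 by median centring and Xcl1 on processed signals. The number of members called by limma was 0 in the values reported and 0 in the other settings run, and became 1 with processed signals, 2 with median centring and 1 with separate-channel limma. All of these use the same 2 arrays. The members' median of 0.48 went to 0.54 with processed signals, 0.57 with median centring, 0.38 with no background subtraction, 0.35 with no filter on dim probes, which brings in Gzmb and Cst7, and 0.53 with the value table of the series, and from 0.40 to 0.44 with 1 array left out. The number of members higher on both arrays stayed between 5 and 7. Of 102 list and marker genes, 25 changed sign in some setting, 17 of them under median centring. Over all genes limma called 0 higher and 0 lower in the values reported, 877 and 105 after median centring, 708 and 568 in the separate-channel fit, 74 and 57 on processed signals, and 22 and 6 from the deposited log ratios. The cause of these differences was not tested. Dim signals limit Gzmb, Cst7 and Xcl1.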
